A study of Mus musculus with 6 samples.

Results

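The genes examined here encode the complement system, and they were followed in livers of mice labelled as knockout for SHP, the orphan nuclear receptor made from Nr0b2. Of 34 complement genes listed by symbol, 31 had a row of that name with counts, among 19594 genes with counts, and 28 passed the filter on low counts. The libraries came from 3 SHP knockout (SHP -/-) mice and 3 wild-type mice, one library each; all were males of the C57BL6 strain background aged 2 months. RNA was extracted from liver and 5′ capped molecules were selected with a variant of the cap-binding protein EIF4E before sequencing, so levels refer to capped RNA. The sources used here do not state how the SHP allele was made or whether the loss is restricted to any cell type. Nr0b2 itself averaged 8.01 CPM (a count relative to the scaled library total) in knockout libraries and 14.5 CPM in wild-type libraries, with the 3 knockout values below the 3 wild-type values. Its log2 difference was -0.81 (SE 0.25, adjusted p = 0.0443, limma voom); without any one library except knockout replicate 3 the adjusted p ran from 0.0531 to 0.121, and it was 0.0667 without the filter on low counts and 0.0536 with scaling by library totals. Since the deleted segment is not stated, reads over the whole gene do not check the genotype.

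Complement is a cascade of plasma proteins, most of them secreted by hepatocytes. The classical route starts when C1q binds antibody or other surfaces, and the lectin route when mannose-binding lectins or ficolins bind sugars. The alternative route starts from spontaneously activated C3, and properdin stabilises its C3-cleaving enzyme. All of these routes converge on C3. Activated C3 leads to cleavage of C5, after which C6, C7, C8 and polymerised C9 form the membrane attack pore, while plasma and membrane-bound regulators stop the cascade on host cells. In the liver C1q is made mainly by Kupffer cells, the resident macrophages.

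Libraries held between 4494353 and 7225842 counts over genes. Mitochondrially encoded genes took 6.50 ± 0.753% of counts in knockout libraries and 10.2 ± 0.0617% in wild-type libraries (SD, n = 3 each). The tissue label was checked against 14 hepatocyte markers. Alb, Apoe and Trf were the most abundant of them, with Alb at 57124 ± 3753 CPM in knockout and 55797 ± 9546 CPM in wild type. One marker of the list, Ahsg, passed the test as higher and another, Tat, as lower. Each lane carried 3 barcoded samples; which libraries shared a lane is not stated, so an effect of lane cannot be told apart from one of genotype.

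Knockout livers carried more transcript of C3, C4b, the C1q chains C1qa and C1qc, and clusterin, and less of C9 and Cd55. Of the 28 tested complement genes, 5 were higher in knockout, against 7.58% of all 11794 tested genes, and 2 were lower, against 6.94% of all tested genes. The 7 calls are 25.0% of the tested complement genes, and 14.5% of all tested genes were called in either direction (limma voom, Benjamini-Hochberg adjustment over all genes, threshold 0.05). At an unadjusted p under the same threshold 11 of the 28 passed, against 30.6% of all tested genes. The median log2 difference was 0.07 over the complement genes and -0.01 over all tested genes. Knockout and wild-type libraries did not overlap for 10 of the 28 genes, a share close to the 35.1% found among all tested genes. Without wild-type replicate 3 the counts were 2 higher and 1 lower, with 633 of all tested genes called against 1713 with every library. The count higher was 3 without knockout replicate 2 or wild-type replicate 2, with 1165 and 1191 of all tested genes called. The count lower was 1 without knockout replicate 3, with 1408 of all tested genes called. C3, C4b and C9 were called in the main analysis and in each of the 13 alternatives tried.

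By role, calls toward higher levels were found among the classical components, in C3 and in 1 regulator, and calls toward lower levels in 1 terminal component and 1 regulator. Of all tested genes 7.58% were higher and 6.94% lower. Among classical genes 3 of 7 were higher and none lower, with a median log2 difference of 0.38. C1qc was not called without knockout replicate 2, knockout replicate 3 or wild-type replicate 2. Without wild-type replicate 3, C4b was the only classical gene called. C4b, listed here as classical, also serves the lectin route. Among lectin genes 0 of 5 were called, with a median of -0.04, and 1 of them, Masp2, passed an unadjusted p of 0.05. The 1 alternative-route gene that could be tested, Cfp, was not called. Among terminal genes 0 of 6 were higher and 1 was lower, with a median of 0.09 that ran from -0.0118 without knockout replicate 1 to 0.18 without knockout replicate 3. Among regulators 1 of 7 was higher and 1 lower, with a median of -0.21 that was -0.13 without knockout replicate 3 and -0.12 without wild-type replicate 3. These medians describe the lists and were not tested against each other.

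**Figure D1:**
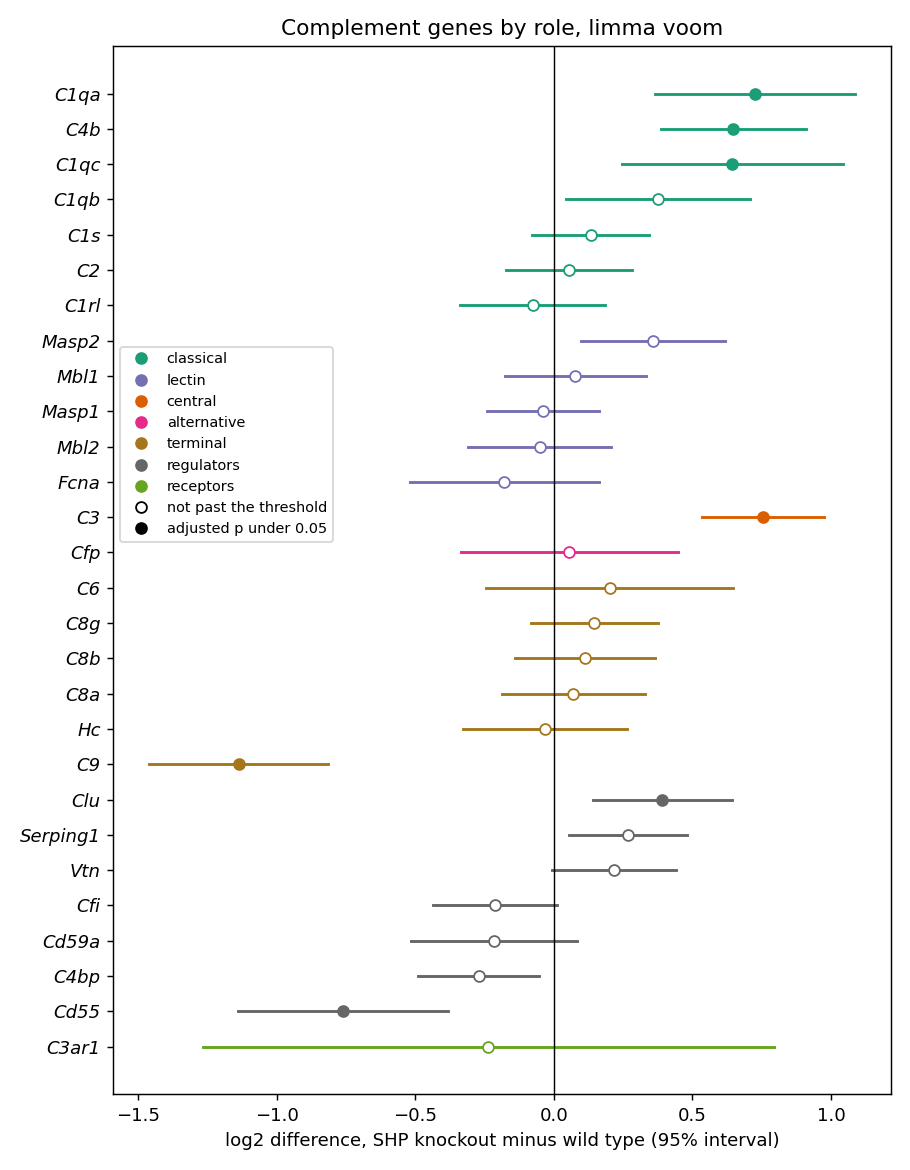
Log2 difference (SHP knockout minus wild type, x axis) of the 28 tested complement genes, grouped and coloured by role, with 95% intervals from limma voom; filled points passed an adjusted p of 0.05. C1qa, C4b, C1qc, C3 and Clu lie to the right of 0 as filled points, and C9 at -1.14 and Cd55 at -0.76 to the left.

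C3, the protein on which all activation routes converge, was the most abundant complement transcript in both genotypes. It had 20639, 20292 and 17527 CPM in the knockout libraries, against 11466, 12562 and 10571 CPM in the wild-type libraries. Every knockout library lay well above every wild-type library. The difference was 1.69-fold, or 0.76 on the log2 scale (SE 0.10, 95% interval 0.54 to 0.98, adjusted p = 0.000561, limma voom). Within the libraries C3 ranked 4, 3 and 4 among all genes by counts in knockout, and 6, 6 and 6 in wild type.

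C3 alone accounted for most of the increase in complement RNA. The 31 measured genes together took 3.29 ± 0.237% of all counts in knockout and 2.42 ± 0.0604% in wild type (SD, n = 3 each). C3 by itself took 1.95 ± 0.121% in knockout and 1.15 ± 0.0663% in wild type. Without C3 the other genes took 1.34 ± 0.119% in knockout and 1.27 ± 0.0417% in wild type, and these ranges overlapped.

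**Figure D2:**
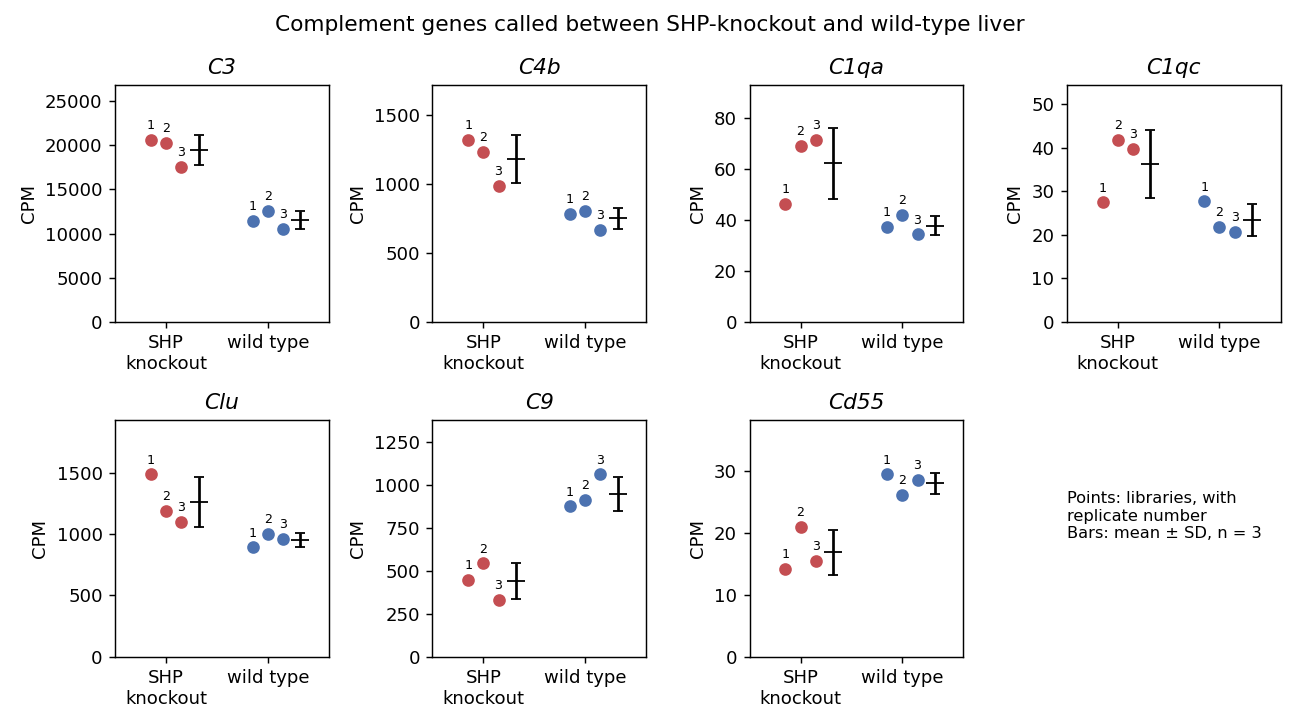
CPM (y axis, linear from 0) of the 7 called complement genes in each library, with SHP knockout left of wild type; numbers mark replicates and bars give mean ± SD, n = 3. The groups are apart for C3, C4b, C1qa, Clu, C9 and Cd55, and for C1qc knockout replicate 1 (27.4 CPM) lies just under wild-type replicate 1 (27.6 CPM).

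C4b, on mouse chromosome 17 (mm9 chr17:34865329-34880827), encodes the C4 protein whose large fragment forms the classical and lectin C3 convertase with C2. It had 1322, 1236 and 989 CPM in knockout libraries, against 784, 804 and 664 CPM in wild-type libraries. The lowest knockout value stood above the highest wild-type value. The log2 difference was 0.65 (SE 0.12, adjusted p = 0.00402, limma voom). The ratio of C3 to C4b, each per kilobase, was 17.6 ± 1.13 in knockout and 16.3 ± 0.721 in wild type, with overlapping libraries. C4a, a neighbouring and nearly identical copy, was far less abundant, with a log2 difference of 0.29 (adjusted p = 0.373); the sources used here do not state how reads were divided between the copies.

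C1qa, C1qb and C1qc encode the 3 chains of C1q and lie side by side on chromosome 4 (mm9 chr4:136436044-136454718). C1qa had 46.3, 68.9 and 71.6 CPM in knockout libraries, against 37.2, 42.0 and 34.3 CPM in wild-type libraries. The groups did not overlap, but knockout replicate 1 was much nearer to wild type than the other knockout libraries were. The log2 difference of C1qa was 0.73 (SE 0.17, adjusted p = 0.0119, limma voom), and without wild-type replicate 3 its adjusted p was 0.0800.

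C1qc had 27.4, 41.8 and 39.6 CPM in knockout libraries, against 27.6, 21.8 and 20.6 CPM in wild-type libraries. Knockout replicate 1 fell among the wild-type values, so the groups overlapped. The log2 difference was 0.64 (SE 0.19, adjusted p = 0.0340, limma voom), and it remained under the threshold in 2 of 6 fits that left out 1 library, those without knockout replicate 1 or wild-type replicate 1. In the fits without any one of the other 4 libraries its adjusted p ran from 0.0878 to 0.16. C1qb averaged 47.3 ± 8.08 CPM in knockout and 36.4 ± 4.68 CPM in wild type (SD, n = 3 each), with a log2 difference of 0.38 (95% interval 0.04 to 0.71) that was not called (adjusted p = 0.117). The ratio of C1qa to C1qc per kilobase was 3.19 ± 0.152 in knockout and 3.05 ± 0.537 in wild type, and the libraries overlapped. The C1q genes lie 3.32 to 3.34 Mb from Nr0b2 on the same chromosome.

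Since C1q comes mainly from macrophages, the markers of Kupffer cells and macrophages were read beside it. Of 21 tested markers, 2 were higher in knockout (Marco and Mpeg1) and 1 was lower (Slc40a1), a share of 14.3% beside the 14.5% called among all tested genes. The summed level of the marker list was 649, 891 and 804 CPM in knockout libraries, against 747, 764 and 682 CPM in wild-type libraries, with the lowest sum in knockout replicate 1, where C1qa and C1qc were also lowest among the knockouts. The Kupffer cell lectin Clec4f had 115 ± 22.8 CPM in knockout and 108 ± 18.8 CPM in wild type (SD, n = 3 each) and was not called. The macrophage-secreted protein Cd5l had a log2 difference of 0.26 (adjusted p = 0.193, limma voom). Sinusoidal endothelial markers also summed lowest in knockout replicate 1, at 413 CPM there, compared with 661 CPM in knockout replicate 2, 665 CPM in knockout replicate 3, and 676, 611 and 665 CPM in wild type. The part of cell composition in the C1q result was not tested, and in bulk liver fewer cells of a type and less RNA per cell cannot be told apart.

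None of the remaining tested classical genes was called. C1s, the C1 protease that cleaves C4 and C2, averaged 383 ± 17.6 CPM in knockout and 349 ± 23.4 CPM in wild type, with a log2 difference of 0.13 (95% interval -0.08 to 0.35). C1rl, a protease related to C1r, had a log2 difference of -0.08 (-0.34 to 0.18). C2, the protease subunit of the classical convertase, had a difference of 0.06 (-0.17 to 0.28). The C2 row starts 4 bases past the row of Rdbp, and RefSeq's later annotation places Cfb, the alternative-route counterpart of C2, between these genes, so its reads may include those of Cfb and the genes cannot be told apart. The interval of C1s overlaps that of the row named C1rb on the opposite strand, which carries the identifier later given to C1ra, and the sources used here do not state whether counting used strand. The C1rb row averaged 116 ± 3.81 CPM in knockout and 95.3 ± 11.1 CPM in wild type. Its log2 difference was 0.28 (adjusted p = 0.109, limma voom), and it was not counted as a member.

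In the lectin route the pattern recognition proteins gave no call. Mbl1, Mbl2 and Fcna, which encode mannose-binding lectins A and C and ficolin A, had log2 differences of 0.08, -0.05 and -0.18, with adjusted p-values from 0.487 to 0.812 (limma voom). Their 95% intervals together ran from -0.52 to 0.33. Masp1, a protease carried by these lectins, averaged 266 ± 5.23 CPM in knockout and 274 ± 10.3 CPM in wild type.

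Masp2, the lectin-route protease that cleaves C4 and C2, lay near the threshold. It had 178, 141 and 138 CPM in knockout libraries, against 124, 121 and 108 CPM in wild-type libraries. The groups did not overlap, and knockout replicate 1 was the highest. The log2 difference was 0.36 (SE 0.12) with an adjusted p of 0.0629 (limma voom), so it was not called. The gene shares 3118 bases with Tardbp on the opposite strand, and their reads cannot be told apart without strand.

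The alternative route was thinly covered. Cfp, which encodes properdin and is a myeloid transcript, averaged 20.3 ± 3.54 CPM in knockout and 19.5 ± 2.58 CPM in wild type, a log2 difference of 0.06 (95% interval -0.34 to 0.45). Cfd, factor D, a protease best known from fat tissue, was below the filter with 0, 10 and 0 counts in knockout and 12, 5 and 0 counts in wild type. Cfb had no row of that name.

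C9, the pore-forming protein of the membrane attack complex, showed the largest log2 difference of any tested complement gene. It had 447, 543 and 330 CPM in knockout libraries, against 875, 911 and 1062 CPM in wild-type libraries. The highest knockout library was well under the lowest wild-type library. C9 was 2.20-fold lower in knockout by the fit, with a log2 difference of -1.14 (SE 0.15, 95% interval -1.46 to -0.81, adjusted p = 0.000498, limma voom). Per kilobase of counted region C9 was 14th in level among the measured complement genes in knockout, at 173 ± 41.8 CPM per kilobase, and 3rd in wild type, at 372 ± 38.8 CPM per kilobase.

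None of the other terminal components was called. C8a, C8b and C8g, which encode the chains of C8, had log2 differences of 0.07, 0.11 and 0.15, and Hc, which encodes C5, had one of -0.03; the 95% intervals of these 4 genes together ran from -0.33 to 0.38. C6, which binds the C5 fragment C5b, had 385, 338 and 194 CPM in knockout libraries, against 205, 296 and 271 CPM in wild-type libraries. Its lowest value was in knockout replicate 3, and the groups overlapped. The log2 difference of C6 was 0.20 (adjusted p = 0.552), and without knockout replicate 3 it was 0.51 (adjusted p = 0.0370, limma voom). The row with the identifier of C7 held 5 to 14 counts per library and was not tested.

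Within each knockout library C9 was scarcer relative to the other terminal components than in wild type. The ratio of C9 to C8a per kilobase was 0.443, 0.603 and 0.456 in knockout libraries, against 1.12, 1.11 and 1.20 in wild-type libraries. All knockout ratios lay below all wild-type ratios, and the same held against C8b, C6 and Hc. The ratio to C8b was 0.742 ± 0.113 in knockout and 1.75 ± 0.0551 in wild type. The ratio to Hc was 0.801 ± 0.107 in knockout and 1.71 ± 0.122 in wild type (SD, n = 3 each). The ratio of C8a to C8b, 1.49 ± 0.113 in knockout and 1.53 ± 0.0917 in wild type, overlapped. With 3 libraries against 3, an exact permutation test cannot go below p = 0.10, so these ratios are given as descriptions. The ratios of C9 all share its level, which did not overlap between genotypes, so they add no separate evidence.

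**Figure D3:**
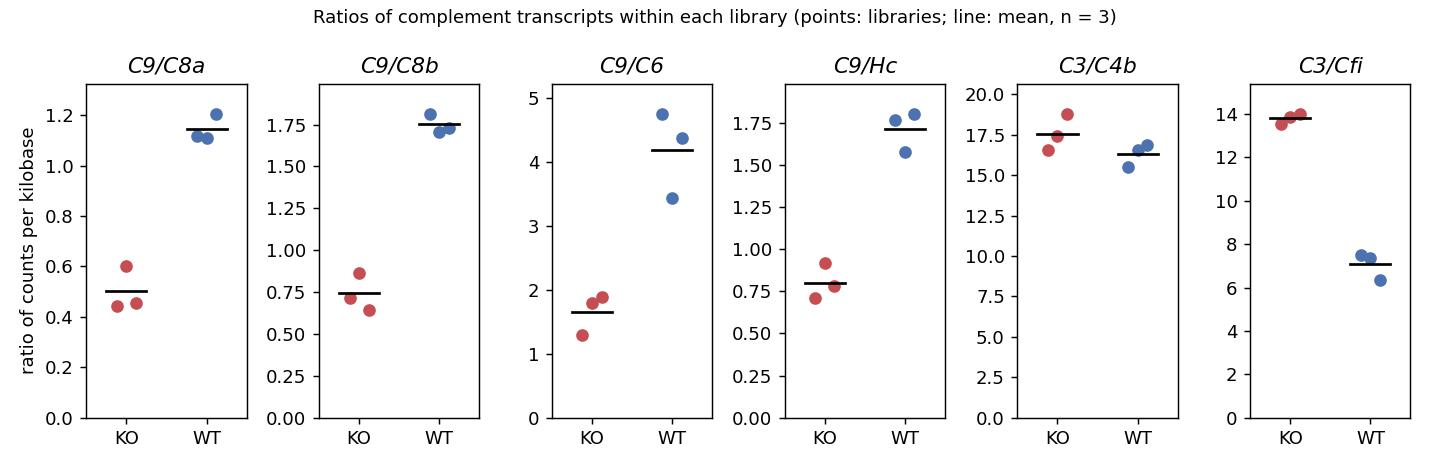
Ratios of counts per kilobase (y axes, linear from 0) between complement genes within each library, SHP knockout (KO) left of wild type (WT); points are libraries and lines are means, n = 3. C9 relative to C8a, C8b, C6 and Hc is lower in all knockout libraries, C3 relative to C4b overlaps, and C3 relative to Cfi is higher in knockout.

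The promoters of C3 and C9 are shown because these genes had the largest changes in opposite directions among those called in every fit. Windows from RefSeq (GRCm38.p6), running from 250 bases before to 50 bases after each annotated start, were matched for 24 of the 31 measured genes, with 26 windows in all because some genes have more than 1. Capitals mark the match to TTGCNNAA, a pattern bound by C/EBP factors, searched on both strands. The C3 window is chr17:57228087-57228386 on the minus strand and the C9 window chr15:6445096-6445395 on the plus strand, both written along the gene.
C3: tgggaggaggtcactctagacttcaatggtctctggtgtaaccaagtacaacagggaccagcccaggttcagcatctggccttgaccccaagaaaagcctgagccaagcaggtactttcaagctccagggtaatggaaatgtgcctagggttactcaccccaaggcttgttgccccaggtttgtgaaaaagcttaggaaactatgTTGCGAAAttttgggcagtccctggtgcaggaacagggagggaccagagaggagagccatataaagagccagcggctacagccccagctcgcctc
C9: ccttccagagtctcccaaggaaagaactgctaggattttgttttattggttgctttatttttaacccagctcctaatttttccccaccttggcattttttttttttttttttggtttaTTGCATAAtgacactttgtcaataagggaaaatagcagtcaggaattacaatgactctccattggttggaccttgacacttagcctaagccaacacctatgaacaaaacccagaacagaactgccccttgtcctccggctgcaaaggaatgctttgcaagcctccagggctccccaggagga

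In the C3 window the match TTGCGAAA begins at -45, and in the C9 window TTGCATAA begins at -132, counted from the start that RefSeq annotates. The pattern was present in 4 of the 26 windows (1 each of C3, C9, C1s and C1rl) and in 10.8% of all 32851 promoter windows. It thus stood before a gene that was higher, a gene that was lower and 2 genes that were not called. Of the called genes, C4b, C1qa and Clu had no window, so no pattern was searched for in them. The STAT pattern TTCNNNGAA, present in 8.30% of all windows, matched 3 of the 26, those of C8a, Masp2 and Vtn. The LRH-1 recognition pattern AAGGTCA, present in 4.72% of all windows, matched 2 of the 26, those of C1rl and Mbl2. LRH-1 is a nuclear receptor that SHP represses. A match is a run of letters and not evidence of binding.

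Regulators moved in both directions. Clu, clusterin, which keeps assembling pores out of membranes, had 1489, 1192 and 1100 CPM in knockout libraries, against 892, 1005 and 962 CPM in wild-type libraries. The groups did not overlap, and knockout replicate 1 stood apart as the highest. The log2 difference was 0.39 (SE 0.12, adjusted p = 0.0389, limma voom), and it passed the threshold in 1 of 6 fits that left out a library, the one without knockout replicate 3. Without any one of the other 5 libraries its adjusted p ran from 0.0562 to 0.161.

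Cd55, decay-accelerating factor, a membrane protein that takes C3 convertases apart, had 14.2, 21.0 and 15.4 CPM in knockout libraries, against 29.5, 26.2 and 28.6 CPM in wild-type libraries. The groups were apart. The log2 difference was -0.76 (SE 0.18, adjusted p = 0.0120, limma voom); it was not called without knockout replicate 3 (adjusted p = 0.0510) or without wild-type replicate 3 (adjusted p = 0.0563). Per kilobase Cd55 was a minor transcript, at 3.55 ± 0.768 CPM in knockout and 5.91 ± 0.362 CPM in wild type.

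For 3 further regulators the groups did not overlap, as for 35.1% of all tested genes, and the adjusted p missed the threshold. C4bp, the plasma cofactor for breakdown of C4b, had 420, 388 and 349 CPM in knockout libraries, against 462, 482 and 448 CPM in wild-type libraries, with a log2 difference of -0.27 (adjusted p = 0.0893). Cfi, factor I, the protease that inactivates C3b and C4b, had a log2 difference of -0.21 (95% interval -0.44 to 0.01, adjusted p = 0.186). Its highest knockout library, at 622 CPM, lay just under its lowest wild-type library, at 625 CPM. Serping1, the C1 inhibitor, had 488, 497 and 453 CPM in knockout libraries, against 394, 430 and 371 CPM in wild-type libraries, with a log2 difference of 0.27 (adjusted p = 0.0857, limma voom). The knockout libraries were thus the lower ones for C4bp and Cfi and the higher ones for Serping1.

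C3 relative to Cfi, and C4b relative to C4bp, were more abundant in knockout. The ratio of C3 to Cfi per kilobase was 13.6, 13.9 and 14.0 in knockout libraries, against 7.50, 7.38 and 6.35 in wild-type libraries. The ratio of C4b to C4bp per kilobase was 1.74 ± 0.111 in knockout and 0.920 ± 0.0663 in wild type (SD, n = 3 each). Neither ratio overlapped between genotypes. This follows from the levels of the single genes, which did not overlap either, so the ratios are descriptions and add no separate evidence.

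Vtn, vitronectin, a plasma inhibitor of pore insertion, averaged 2142 ± 227 CPM in knockout and 1836 ± 128 CPM in wild type, with a log2 difference of 0.22 (adjusted p = 0.174). Cd59a, a membrane protein that blocks C9 addition, had a log2 difference of -0.22 (95% interval -0.51 to 0.08). Cd46, a membrane cofactor for factor I whose mouse expression is largely testicular, held 0 to 4 counts per library and was below the filter. Of the receptors for the small complement fragments, C3ar1 passed the filter with a log2 difference of -0.24 (95% interval -1.27 to 0.79). C5ar1 held 4, 9 and 7 counts in knockout and 6, 8 and 7 counts in wild type, below the filter.

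**Figure D4:**
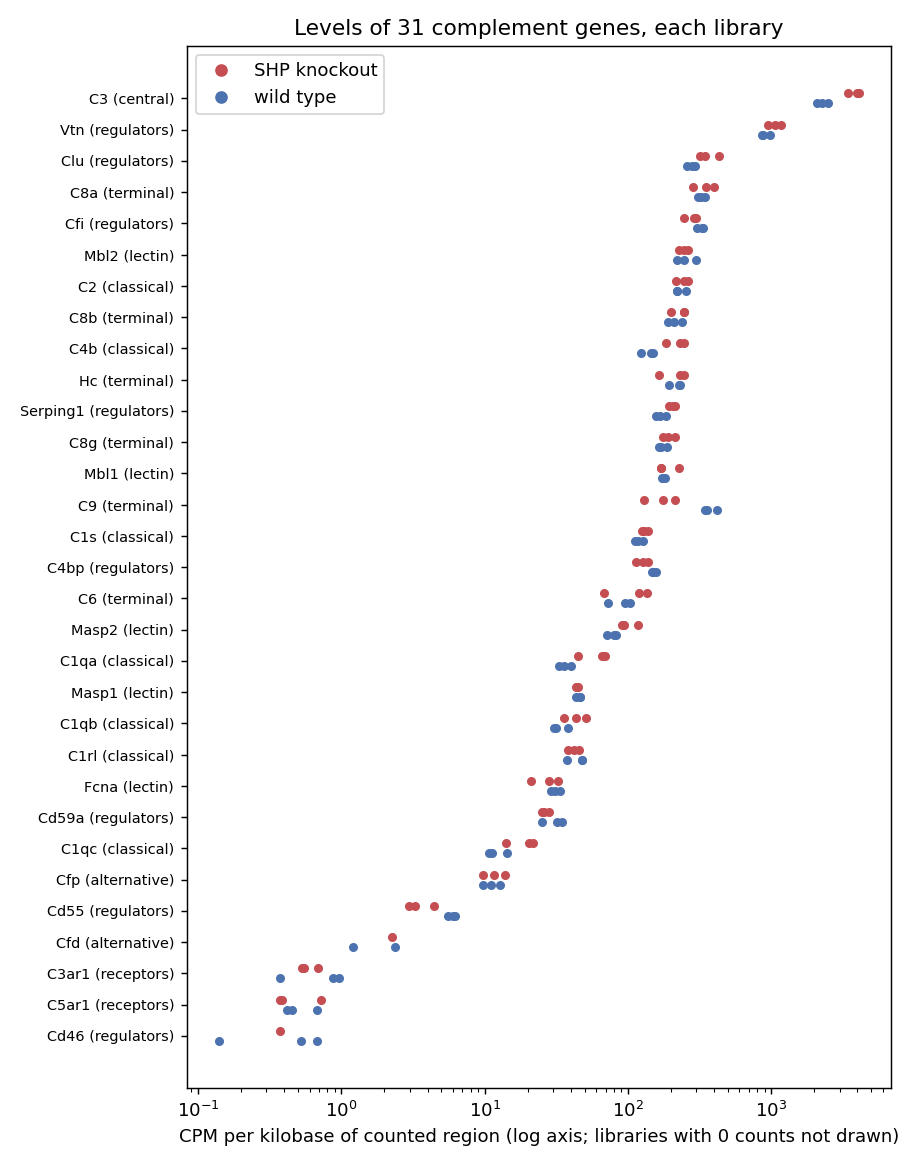
CPM per kilobase of counted region (log x axis) of the 31 measured complement genes in each library, with SHP knockout points above wild-type points for each gene; genes are ordered by the knockout mean and libraries with 0 counts are not drawn. C3 at 3841 ± 336 CPM per kilobase in knockout and 2273 ± 197 in wild type leads in both genotypes, and C9, at 173 ± 41.8 in knockout and 372 ± 38.8 in wild type, shows wild-type points to the right of all knockout points.

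The order of levels per kilobase was headed in both genotypes by C3 and then Vtn, at 1055 ± 112 CPM per kilobase in knockout and 905 ± 62.9 in wild type. C3 was apart from Vtn in every library. In knockout Clu (367 ± 59.2) and C8a (344 ± 56.7) followed with overlapping libraries. In wild type C9 (372 ± 38.8), C8a (325 ± 19.6) and Cfi (322 ± 17.9) followed, with overlapping libraries between neighbours in that order. C4b ranked 9 in knockout and 15 in wild type.

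**Figure D5:**
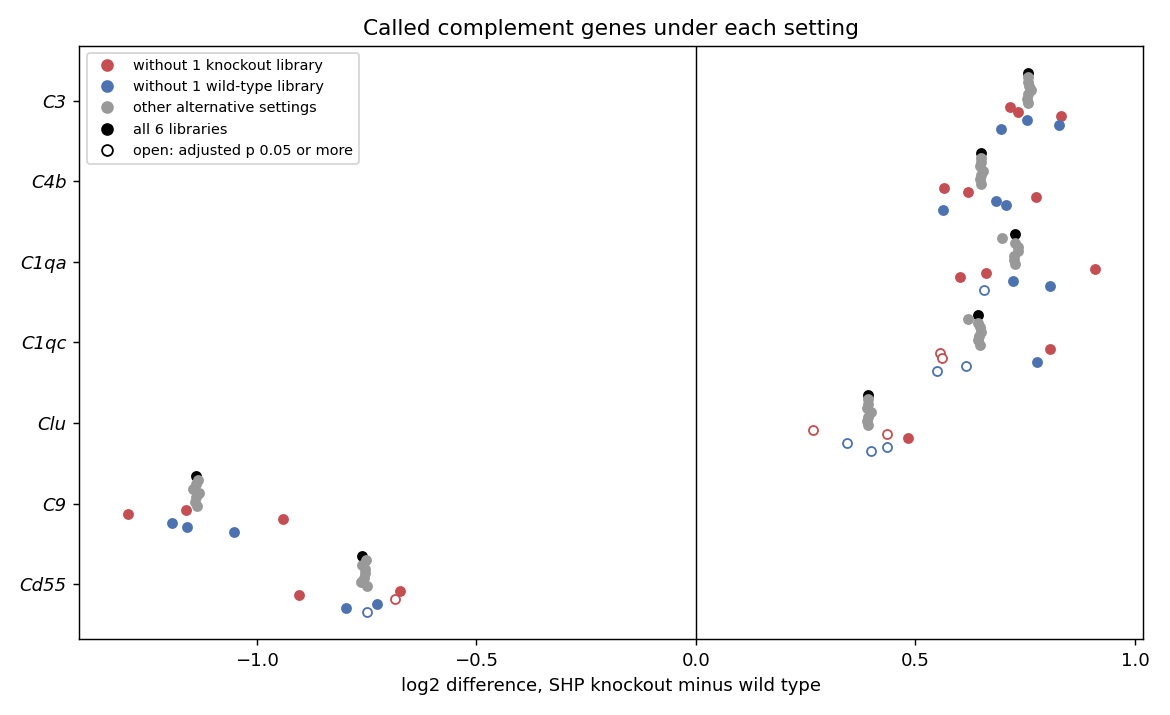
Log2 difference (SHP knockout minus wild type, x axis) of the 7 called complement genes in the main analysis (black), with 1 knockout library (red) or 1 wild-type library (blue) left out, and under the other alternatives (grey); open points had an adjusted p of 0.05 or more. C3, C4b and C9 have no open point, whereas Clu passes in 1 of 6 fits without a library.

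Other genes of the pathway, from a list of 36 that holds further plasma regulators, collectins, complement receptors and contact or carboxypeptidase enzymes that act on complement, showed calls at about the background rate. Of 24 tested, 2 were higher and 2 lower, a share of 16.7% beside the 14.5% called among all tested genes. In all 1 gene of the list was called without knockout replicate 1 or wild-type replicate 3, and 2 without knockout replicate 2. Calls among all tested genes also fell in these fits, from 1713 to 1073, 633 and 1165, in that order. F2, prothrombin, whose protease can cleave complement proteins, averaged 2000 ± 53.5 CPM in knockout and 1545 ± 110 CPM in wild type, with a log2 difference of 0.37 (adjusted p = 0.0179, limma voom). Cpn2, a subunit of the carboxypeptidase that inactivates C3a and C5a, had a log2 difference of 0.40 (adjusted p = 0.0424). Klkb1, plasma prekallikrein, had one of -0.49 (adjusted p = 0.00765). Klkb1 was called in 6 of 6 fits that left out a library, F2 in 3 and Cpn2 in 2, with adjusted p-values up to 0.0934 for F2 and 0.184 for Cpn2.

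Colec10, a collectin of the lectin route, had 14.4, 42.8 and 50.3 CPM in knockout libraries, against 63.1, 59.2 and 75.4 CPM in wild-type libraries, a log2 difference of -0.97 (adjusted p = 0.0462, limma voom). The groups were apart, with knockout replicate 1 far below the rest. Without that library the log2 difference of Colec10 was -0.49 (adjusted p = 0.0602). Colec10 was called in 2 of 6 fits that left out a library, with an adjusted p up to 0.187, and in 4 of the 7 other alternatives, with an adjusted p of 0.263 under the robust form of the fit. That library also had the lowest summed level of stellate and fibroblast markers, 249 CPM, compared with 487 CPM in knockout replicate 2, 491 CPM in knockout replicate 3, and 503, 461 and 471 CPM in wild type; the part of these cells in the result was not tested. Calr, Cpn1 and Crp were among the most abundant genes of the list that were not called.

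Among 23 tested genes for cytokine signals and transcription factors known to act on complement and acute phase genes, 5 were higher and 0 lower in knockout (10 at an unadjusted p under 0.05, limma voom), where 7.58% of all tested genes were higher and 30.6% passed the unadjusted p. The largest differences were those of Socs3, Cebpb, Cebpa and Tnfrsf1a; Stat3, named after its value was seen, was the other. Socs3 was not called under the robust form of the fit (adjusted p = 0.0935), nor Tnfrsf1a without wild-type replicate 3 (adjusted p = 0.0750). Cebpa, a C/EBP factor of hepatocytes, had 478, 508 and 470 CPM in knockout libraries, against 257, 209 and 252 CPM in wild-type libraries. Cebpb, a C/EBP factor induced in inflammation, had 88.8, 110 and 74.1 CPM in knockout libraries, against 38.4, 37.6 and 50.2 CPM in wild-type libraries. Both factors were higher in every knockout library than in any wild-type library. The log2 difference of Cebpa was 1.02 (adjusted p = 0.000101, limma voom) and that of Cebpb was 1.09 (adjusted p = 0.00106). Of 21 classical acute phase genes outside complement, 11 were higher and 0 lower, against 7.58% and 6.94% of all tested genes. This count was not repeated in the alternatives. Knockout and wild-type libraries did not overlap for 9 of the 21, where 35.1% of all tested genes did not. Orm3, Lcn2, Orm2 and Saa1 were the furthest changed. Of these 4, Saa1 was not called under the robust form (adjusted p = 0.17), and Lcn2 was called in 2 of 6 fits that left out a library, with an adjusted p up to 0.14. Lcn2 held 56, 42 and 26 counts in knockout and 8, 4 and 8 counts in wild type. Orm3 held 35, 45 and 42 counts in knockout and 12, 3 and 5 counts in wild type. Both passed the filter through their knockout libraries, so the size of their differences is imprecise. Both are also among the 11 counted as higher, and a gene kept in this way could hardly have counted as lower.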

How the data were processed

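Counts, RPKM and log2 ratios were deposited by the authors per Ensembl gene. Per the submitters' processing notes, reads were aligned with Novoalign 2.05.33 and the build was mm9. The sources used here do not state the counting tool, the annotation release, or how strand and multiply aligned reads were treated. Per the file headers, RPKM and log2 ratio were computed on pooled groups and carry no replicate error. Count columns were recorded under a general unit, because 4840 lines end early and a unit check reads the missing cells as text; count models were therefore not used. Even values made up 61.8% of counts from 1 to 19, so counts may include both mates of a pair. Intervals from counting noise alone would then be too narrow. The intervals given here use the spread between libraries.

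The table lists 33495 genes, of which 13901 have no counts. Genes were tested where at least 3 libraries reached 1.83 CPM (10 counts at the median library size) and the total reached 15. Scaling used trimmed means of M values (factors 0.966 to 1.03), and 11794 genes were fitted with limma 3.58.1 (voom, 0.5 added to counts) in R 4.3.3 on genotype alone, two-sided, and Benjamini-Hochberg adjustment over all genes. CPM per kilobase divides by the counted length. The code was tested on simulated data. No 2 libraries of a group agreed within sampling noise. Every measured complement gene is named; of further complement genes, those called and the 4 most abundant not called (1 of these is not reported here); of signal and acute phase genes, the 4 called genes furthest from 0; of hepatocyte and Kupffer cell markers, the most abundant and those called. Members and lists were chosen with earlier results of these data known. The other marker lists gave 1 higher call among 11 sinusoidal endothelial genes, 1 lower among 13 stellate genes and 0 among 1 lymphocyte gene. No neutrophil marker passed the filter. Of the adipocyte list 3 genes were tested and 1, Car3, was lower, at 2069 CPM in knockout and 2846 CPM in wild type. Adipoq and Plin1 of that list were below the filter, so the call is not read as one about fat cells. Alternatives were limma trend, robust moderation, no filter, median-of-ratios scaling, library totals, omission of mitochondrial genes, a replicate block and leaving out each library. Values were not converted between builds.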

Additional observations from a re-analysis of the deposited data

How the results depend on the processing

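With 1 library left out, the number of complement genes higher in knockout ran from 2 (without wild-type replicate 3) to 5, with 3 without knockout replicate 2 or wild-type replicate 2, and the number lower from 1 (without knockout or wild-type replicate 3) to 2. Over these fits all called genes ran from 633 (without wild-type replicate 3) to 1572, with 1073 without knockout replicate 1 and 1713 in the full set; other complement pathway genes ran from 1 to 5, the classical median from 0.28 to 0.49, the terminal median from -0.0118 to 0.18, the regulator median from -0.23 to -0.12 and the lectin median from -0.0694 to 0.0746. Among complement genes, directions turned only in such fits and only in genes not called: C2 (-0.0059 to 0.14), Hc (-0.14 to 0.15), C8a (-0.034 to 0.20), Cfp (-0.045 to 0.16), Mbl1 (-0.056 to 0.16), Mbl2 (-0.15 to 0.0746) and C3ar1 (-0.58 to 0.0023). The other 7 alternatives left all 7 complement calls in place. Same-numbered libraries correlated at -0.02 in their deviations over 11794 genes, against -0.007 to 0.03 for libraries with different numbers. No pairing by number was seen across these genes. A correlation over so many genes cannot exclude a pairing that affects only some of them. The replicate block gave 6 higher (with Masp2, adjusted p = 0.0396) and 2 lower. It gave 1779 called genes in all, with Nr0b2 at an adjusted p of 0.0553. Genes with few counts were the least precise, and 3 measured genes were too low to test.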
